A study of Oryza sativa with 11 samples.

Results

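Genes whose transcripts were at least 3 times higher in wild-type (WT) rice anthers at stage 10 than at stage 12 were followed into the ostie1-1 mutant. A locus was taken where its lowest WT stage 10 value was at least 3 times its highest WT stage 12 value and all WT stage 10 libraries reached 5 FPKM, a read density that corrects for transcript length and library size. The members were thus chosen by their WT values alone. The rule gave 27 of 55986 loci, or 0.298% of the 9050 loci that reached 5 FPKM in all WT stage 10 libraries. All 27 passed the filter on low values (1 FPKM in at least 2 libraries), 4 of them through WT alone. The fall in WT is therefore a description with no test. The ostie1-1 libraries did not enter the choice.

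The data are messenger RNA levels of whole anthers from untreated, field-grown rice (Oryza sativa), in 11 libraries of 4 groups. WT at stage 10, WT at stage 12 and ostie1-1 at stage 10 had 3 libraries each, and ostie1-1 at stage 12 had 2. The series studies OsTIE1, a transcriptional repressor, in anther opening and male fertility. The labels give neither the cultivar nor the nature of the ostie1-1 allele, and they number biological replicates without saying whether these are separate plants. P-values therefore measure the spread between these samples.

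In a young anther the tapetum, the innermost wall layer, feeds the microspores and supplies lipids and proteins for the pollen wall and the anther surface. It then degenerates by programmed cell death while the pollen fills with reserves, and the anther wall later dries and splits to release the pollen. Transcripts of tapetal and early microspore genes are for this reason known to disappear as the anther matures. Whole anthers were sequenced, so fewer cells of a type and less RNA per cell cannot be told apart. The sources used here do not pair the locus IDs with names, so the loci are given by ID and ordered by their course in ostie1-1.

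One library stood apart. Log2 levels of WT stage 10 replicate 3 correlated at 0.79 and 0.80 across genes with those of WT stage 10 replicates 1 and 2, whereas its correlation with ostie1-1 stage 10 was 0.88 to 0.90. The 11 photosynthesis loci, a marker list for green tissue, summed to 1710 FPKM in it against 99.0 and 81.5 FPKM in WT stage 10 replicates 1 and 2 and 21.9 to 37.5 FPKM in ostie1-1 at stage 10. Anther lists were present in all groups. The 12 tapetum loci summed to 15930 to 22529 FPKM in WT stage 10 and 26079 to 64902 in ostie1-1 stage 10, against 2105 to 15793 and 4934 to 6550 at stage 12. The 7 late pollen loci summed to 80.9 to 321 FPKM in WT stage 10 and to 1211 to 2489 in WT stage 12, with 52.2 to 157 and 2326 to 3194 FPKM in ostie1-1. The 4 pistil and glume loci, which mark other organs, summed to 3.16 to 6.67 and 3.52 to 29.95 FPKM in WT at the 2 stages and to 60.2 to 123 and 47.3 to 50.6 FPKM in ostie1-1. Of the loci in these lists, 3 photosynthesis loci, 1 tapetum locus and 1 pistil and glume locus were listed at 0 in every library, and no late pollen locus was. The part of these differences in the results below was not tested.

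The 27 loci covered a wide range of levels in WT at stage 10. Their means ran from 9.85 to 9232 FPKM, with 12 loci at 100 FPKM or more and 10 below 50 FPKM. They lay on 10 chromosomes by their IDs, with 5 on chromosome 4, 4 on chromosome 5, and none in neighbouring positions. The closest 2 on one chromosome, LOC_Os10g05750 and LOC_Os10g05980, stood 230 apart in locus number. All 27 had a single transcript model, as did 96.6% of the loci at 5 FPKM or more in WT stage 10. Together they held 1.38%, 1.61% and 3.00% of the FPKM in WT stage 10 replicates 1 to 3 and 0.293%, 0.146% and 0.0582% in WT stage 12 replicates 1 to 3.

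**Figure D1:**
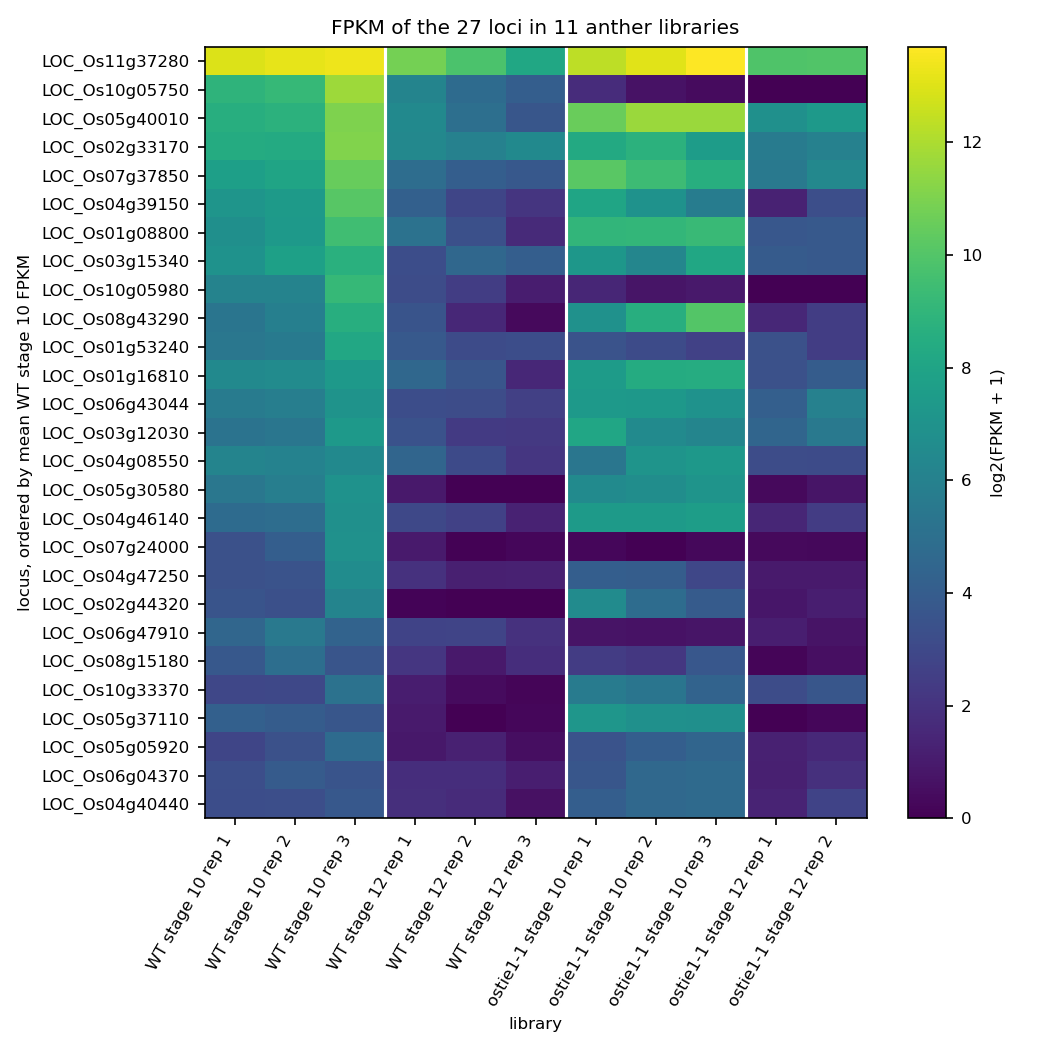
Level of each of the 27 loci (rows, ordered by mean WT stage 10 FPKM) in each of the 11 libraries (columns), as log2(FPKM + 1) of the deposited values; white lines part the 4 groups. Most rows are bright in both stage 10 groups and dark in both stage 12 groups, while 4 rows are dark in all 5 ostie1-1 libraries.

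LOC_Os11g37280 was the most abundant by far, at 7964, 9272 and 10460 FPKM in WT stage 10 and 1842, 893 and 281 FPKM in WT stage 12. It alone made up 1.06% to 1.29% of all FPKM in WT stage 10. The next were LOC_Os10g05750 (484, 577 and 3271 FPKM in WT stage 10), LOC_Os05g40010 (376, 446 and 2109 FPKM) and LOC_Os02g33170 (344, 333 and 2223 FPKM). All of them were highest in replicate 3. LOC_Os07g37850 measured 207, 259 and 1454 FPKM at stage 10 and 28.6, 15.96 and 12.4 FPKM at stage 12 in WT. LOC_Os04g39150 stood at 141, 173 and 1140 FPKM, LOC_Os01g08800 at 112, 164 and 711 FPKM and LOC_Os03g15340 at 125, 222 and 415 FPKM in WT stage 10. The most complete loss in WT was that of LOC_Os02g44320, with 10.8, 9.29 and 70.8 FPKM at stage 10 and 0.0885, 0 and 0 FPKM at stage 12. LOC_Os05g30580 was similar, with 42.1, 57.2 and 125 FPKM followed by 0.890, 0 and 0 FPKM.

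Replicates of WT differed in a shared way over these loci. WT stage 10 replicate 3 held the highest value of its group in 23 of 27 loci, and the median ratio of its FPKM to the mean of replicates 1 and 2 was 4.28 (0.518 to 9.94). Over the loci at 5 FPKM or more in all WT stage 10 libraries that median ratio was 0.633. WT stage 12 replicate 1 held the highest value of its group in 23 of 27 loci and replicate 3 the lowest in 20. The median FPKM of the loci was 8.31, 5.33 and 2.11 in WT stage 12 replicates 1 to 3. These values are unscaled, and the median-of-ratios factors of the same libraries, 1.31, 1.18 and 1.08, run in the same order. No share over all loci is given for this order. The WT libraries decide how many loci the rule finds. Without WT stage 10 replicate 1 it found 63 loci, without WT stage 12 replicate 1 it found 100, and without WT stage 10 replicate 3 or WT stage 12 replicate 2 it found 40 and 42. Each of these sets held all 27.

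**Figure D2:**
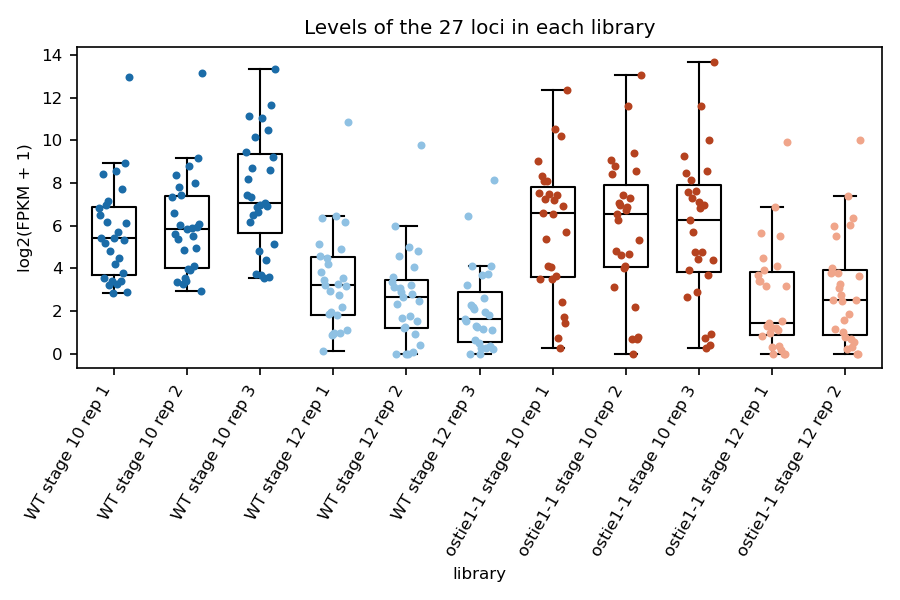
Levels of the 27 loci in each library as log2(FPKM + 1) of the deposited values; points are loci, boxes span the quartiles with the median as a line, and whiskers reach the last value within 1.5 box lengths. The median of the 3 ostie1-1 stage 10 libraries (94.7, 91.9 and 75.3 FPKM) lies between those of WT stage 10 replicates 1 and 2 (42.1 and 57.2 FPKM) and replicate 3 (132 FPKM).

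In ostie1-1 most of these transcripts also fell from stage 10 to stage 12. Of the 27 loci 17 (63.0%) fell, 0 rose (0 also at an unadjusted p below 0.05) and 10 did not pass (limma, Benjamini-Hochberg adjusted p below 0.05 over all 21279 loci tested). Over all loci tested 2.96% fell and 7.79% rose in the same comparison. The median log2 difference of the 27 was -2.88, with a range from -6.99 to 0.19, against -0.04 for all loci tested. The 27 include the 4 loci that passed the filter on low values only through WT. Their differences in ostie1-1 lie at the floor, among them the 0.19 of LOC_Os06g47910. The 17 falls ranged from -2.49 to -6.99 on the log2 scale, with standard errors (SE) of 0.36 to 1.18 and adjusted p of at most 0.0330. In unscaled FPKM both ostie1-1 stage 12 libraries lay below all 3 stage 10 libraries in 24 of 27 loci (88.9%), which 20.1% of all loci tested also did. The 24 include LOC_Os10g05750 and LOC_Os10g05980, which stood at 2.28 FPKM or less in ostie1-1 stage 10 and were listed at 0 at stage 12. Their order lies at the floor and is not read as a fall. The count depends on single libraries. Of the 27, 11 fell without ostie1-1 stage 10 replicate 2, as did 268 of all loci tested. WT stage 10 replicate 3 enters this comparison only through the shared variance and the scaling. Without it 22 fell, as did 2037 of all loci tested, against 630 as reported. The calls over all loci thus moved with those of the 27. Without ostie1-1 stage 12 replicate 1, which leaves 1 library in that group, the median log2 difference of the 27 was -2.70.

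The fold of the WT rule was also met in most loci in ostie1-1. Among the 22 loci with at least 5 FPKM in all ostie1-1 stage 10 libraries, 16 (72.7%) had a lowest stage 10 value at least 3 times the highest stage 12 value, against 2.36% of the 9860 loci tested at that level. With no minimum level 19 of 27 loci (70.4%) met it, against 2.84% of all loci tested, but 2 of these stood at 2.28 FPKM or less at stage 10 and were listed at 0 at stage 12. The complete rule, applied to ostie1-1 in place of WT, found 233 loci. The 16 loci found in both genotypes were 59.3% of the WT set and 6.87% of the ostie1-1 set.

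**Figure D3:**
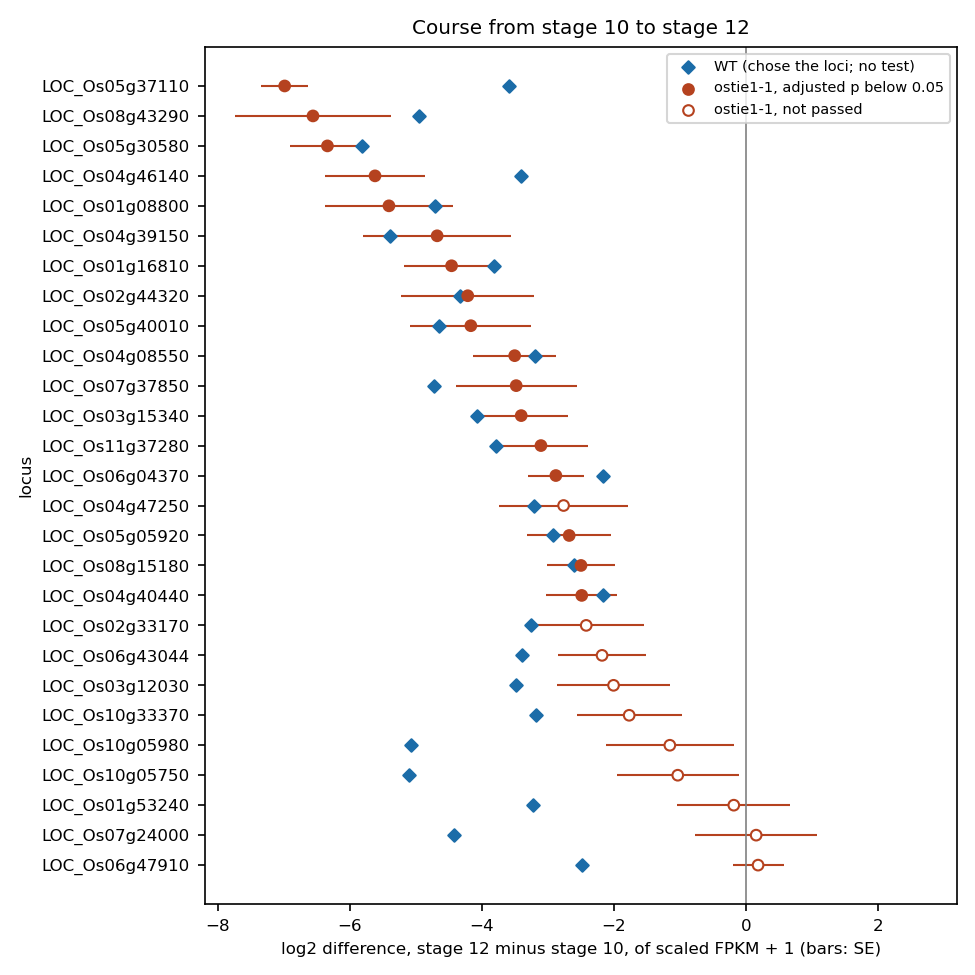
Log2 difference between stage 12 and stage 10 on the scaled log2(FPKM + 1) scale for each of the 27 loci. Diamonds show WT, which chose the loci and carries no test; circles show ostie1-1 with its SE, filled for the 17 loci with an adjusted p below 0.05, and 3 of the 10 open circles lie within 0.2 of zero.

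LOC_Os05g37110 had the largest fall in ostie1-1. It measured 146, 118 and 113 FPKM in ostie1-1 stage 10 and 0 and 0.181 FPKM in stage 12, a log2 difference of -6.99 (SE 0.36, adjusted p = 1.23e-05). In WT the same locus went from 17.4, 14.8 and 11.8 FPKM to 0.965, 0 and 0.199 FPKM. All 3 ostie1-1 stage 10 values were above every WT stage 10 value, whereas the stage 12 values of the genotypes overlapped.

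LOC_Os08g43290 fell from 121, 381 and 1043 FPKM to 1.85 and 4.68 FPKM in ostie1-1 (log2 difference -6.56, SE 1.18, adjusted p = 0.00546). Its stage 10 values were widely spread in both genotypes, with 38.6, 59.8 and 384 FPKM in WT. LOC_Os05g30580 fell from 93.0, 104 and 137 FPKM to 0.255 and 0.723 FPKM (-6.34, SE 0.57, adjusted p = 3.83e-04). LOC_Os04g46140 fell from 176, 173 and 197 FPKM to 1.74 and 4.47 FPKM (-5.62, SE 0.76, adjusted p = 0.00145). Its ostie1-1 stage 10 values were close together and above the 26.7, 28.3 and 117 FPKM of WT. LOC_Os01g08800 fell from 517, 535 and 621 FPKM to 12.0 and 13.0 FPKM (-5.41, SE 0.97, adjusted p = 0.00527), and WT stage 10 replicate 3, at 711 FPKM, was above all of them.

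The abundant LOC_Os11g37280 took a course in ostie1-1 that overlapped with WT at both stages. It measured 5220, 8651 and 13211 FPKM at stage 10 and 985 and 1020 FPKM at stage 12, a log2 difference of -3.10 (SE 0.71, adjusted p = 0.0175). Both stage 12 values were close together and lay inside the wide WT range of 281 to 1842 FPKM. The call was lost without any one of ostie1-1 stage 10 replicates 2 and 3 or ostie1-1 stage 12 replicates 1 and 2, and with quantile normalization, no filter or the replicate block, with adjusted p of 0.00780 to 0.121 over the alternatives run.

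LOC_Os05g40010 fell from 1498, 3156 and 3155 FPKM to 115 and 169 FPKM in ostie1-1 (-4.17, SE 0.92, adjusted p = 0.0142). It was the second highest of the loci in ostie1-1 at both stages, and its stage 12 values were above the 88.1, 30.6 and 11.8 FPKM of WT. LOC_Os07g37850 fell from 1171, 678 and 382 FPKM to 45.5 and 81.4 FPKM (-3.48, SE 0.92, adjusted p = 0.0330) and also stayed above all WT stage 12 values. This was the fall nearest the threshold, and it was lost in 8 of 20 alternatives.

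LOC_Os01g16810 fell from 181, 340 and 350 FPKM to 9.62 and 15.1 FPKM (-4.46, SE 0.73, adjusted p = 0.00339). Every ostie1-1 stage 10 value was above the WT values of 88.8, 97.2 and 171 in unscaled FPKM, but not after the median-of-ratios scaling. LOC_Os04g39150 fell from 268, 123 and 51.9 FPKM to 1.49 and 8.62 FPKM (-4.68, SE 1.12, adjusted p = 0.0213). LOC_Os02g44320 fell from 94.7, 27.3 and 14.2 FPKM to 0.775 and 1.20 FPKM (-4.21, SE 1.00, adjusted p = 0.0206). These 2 loci were highest in ostie1-1 stage 10 replicate 1 and lowest in replicate 3, the reverse of LOC_Os08g43290 and LOC_Os11g37280. Over the 27 loci replicate 1 was highest in 11 and replicate 3 in 14, so the ostie1-1 stage 10 libraries did not differ in one shared direction as those of WT did.

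The other 6 loci that fell had lower levels or smaller falls, from -2.49 to -3.50 on the log2 scale. LOC_Os03g15340 went from 150, 76.5 and 283 FPKM to 14.1 and 12.9 FPKM, and LOC_Os04g08550 from 40.7, 135 and 157 FPKM to 7.98 and 7.58 FPKM. LOC_Os06g04370 went from 11.7, 24.1 and 26.1 FPKM to 1.297 and 2.67 FPKM (-2.88, SE 0.42, adjusted p = 0.00204). LOC_Os05g05920 went from 10.4, 16.1 and 20.8 FPKM to 1.37 and 1.96 FPKM, and LOC_Os04g40440 from 16.3, 23.3 and 26.01 FPKM to 1.54 and 5.78 FPKM. LOC_Os08g15180 was the one fall from a level under 5 FPKM in some libraries, with 4.32, 3.59 and 12.1 FPKM at stage 10 and 0.141 and 0.451 FPKM at stage 12. Of the 17 falls 4 passed in every one of the 20 alternative analyses, and these were LOC_Os04g46140, LOC_Os05g30580, LOC_Os05g37110 and LOC_Os06g04370.

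**Figure D4:**
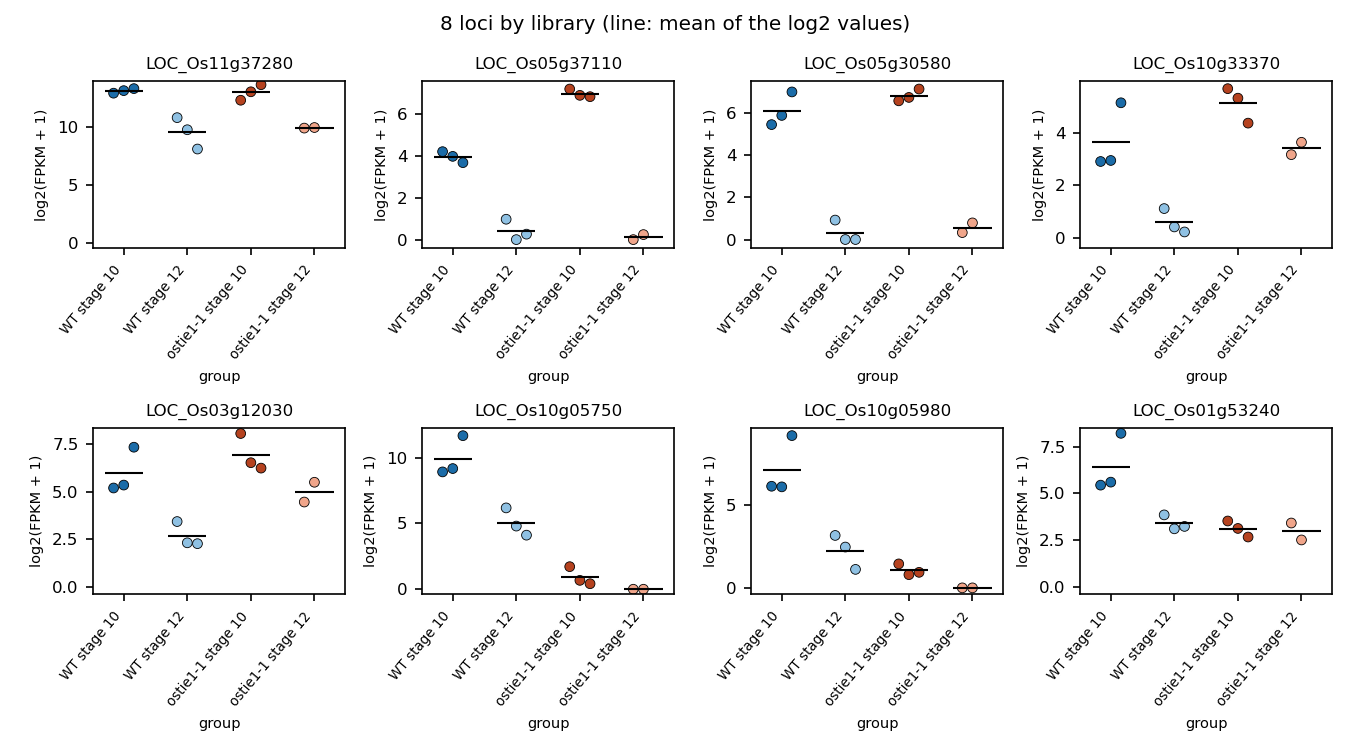
Levels of 8 of the loci as log2(FPKM + 1) of the deposited values; each point is a library, replicates run from left to right within a group, and lines are means of the log2 values. The first 3 panels show falls in both genotypes, the next 2 higher stage 12 levels in ostie1-1 than in WT, and the last 3 low stage 10 levels in ostie1-1; the vertical scales differ.

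Among the 10 loci that did not pass, 5 were above 5 FPKM in all ostie1-1 stage 10 libraries and lower than that group in both stage 12 libraries. LOC_Os10g33370 measured 50.7, 39.2 and 19.7 FPKM at stage 10 and 7.99 and 11.5 FPKM at stage 12 (log2 difference -1.77, SE 0.80, adjusted p = 0.198). In WT it ended at 1.15, 0.324 and 0.159 FPKM, far below both ostie1-1 stage 12 values. LOC_Os03g12030 measured 269, 91.9 and 75.3 FPKM followed by 21.1 and 44.5 FPKM (-2.004, SE 0.86, adjusted p = 0.176), against 9.85, 3.996 and 3.84 FPKM in WT stage 12. LOC_Os06g43044 measured 170, 157 and 123 FPKM followed by 16.5 and 64.5 FPKM (-2.18, SE 0.67, adjusted p = 0.0613), against 8.52, 8.20 and 5.03 FPKM in WT stage 12. In these 3 loci both ostie1-1 stage 12 libraries were above all WT stage 12 libraries. LOC_Os02g33170 measured 318, 446 and 188 FPKM followed by 50.3 and 63.4 FPKM (-2.42, SE 0.87, adjusted p = 0.107). LOC_Os04g47250 measured 15.9, 15.2 and 6.44 FPKM followed by 0.951 and 1.01 FPKM (-2.76, SE 0.97, adjusted p = 0.1001). Without WT stage 10 replicate 3 all 5 passed, all lower at stage 12. In that fit 2037 of all loci tested fell, against 630 as reported, so passing there is not particular to these loci.

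The other 5 loci that did not pass were low in ostie1-1 already at stage 10. LOC_Os10g05750 stood at 2.28, 0.596 and 0.336 FPKM in ostie1-1 stage 10 and was listed at 0 in both stage 12 libraries, while WT held 484, 577 and 3271 FPKM at stage 10 and 71.7, 26.9 and 16.3 FPKM at stage 12. LOC_Os10g05980 stood at 1.73, 0.738 and 0.916 FPKM and was again listed at 0 at stage 12, against 69.5, 67.7 and 586 FPKM and then 7.98, 4.52 and 1.17 FPKM in WT. For both loci every ostie1-1 library was below every WT library of the same stage.

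LOC_Os07g24000 was at most 0.279 FPKM in the ostie1-1 libraries and measured 9.57, 16.05 and 119 FPKM in WT stage 10, with 0.981, 0.0712 and 0.195 FPKM in WT stage 12. LOC_Os06g47910 ran from 0.614 to 1.20 FPKM in the ostie1-1 libraries, against 21.6, 45.5 and 19.9 FPKM and then 5.64, 6.04 and 2.89 FPKM in WT. LOC_Os01g53240 measured 10.5, 7.73 and 5.36 FPKM in ostie1-1 stage 10 and 9.67 and 4.70 FPKM in stage 12, near its WT stage 12 values of 13.4, 7.61 and 8.41 FPKM and below its WT stage 10 values of 42.3, 47.4 and 294 FPKM. The first 4 of these loci passed the filter on low values only through WT, with at most 1 ostie1-1 library at 1 FPKM, so their course between the stages in ostie1-1 lies at the floor and is not read. The size of a log2 difference there is set by the pseudocount, LOC_Os10g05750 and LOC_Os10g05980 standing at -1.03 and -1.15 with a pseudocount of 1 and at -3.31 and -3.67 with 0.1. LOC_Os01g53240 had a log2 difference of -0.18 (SE 0.85, adjusted p = 0.924). In each of the 5, every ostie1-1 stage 10 value was below every WT stage 10 value. With LOC_Os01g53240 left aside, 4 of the 27 loci (14.8%) were under 5 FPKM in every ostie1-1 library, as were 45 of the 9050 loci (0.497%) at 5 FPKM or more in WT stage 10. The 9050 loci carry no condition at stage 12, whereas the 27 were also chosen for low WT stage 12 values. The shares are therefore of unlike sets, and no excess is read from them.

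The genotypes can be set side by side at each stage as a description only, since the WT libraries chose the loci. At stage 10 the ostie1-1 values were below all WT values in 5 of 27 loci, above them in 4, and overlapped in 18. Over all loci tested 6.67% were below and 11.4% above without overlap. The 4 loci above were LOC_Os01g16810, LOC_Os04g40440, LOC_Os04g46140 and LOC_Os05g37110. These orders, and the shares over all loci, are of unscaled FPKM, whereas the log2 differences are of scaled values. The median-of-ratios factors were 0.789 for ostie1-1 stage 10 replicate 1 and 0.729 for WT stage 10 replicate 3. Divided by these factors, LOC_Os01g16810 overlapped with WT. The median log2 difference, ostie1-1 minus WT, was 0.82 (from -8.87 to 3.19). It moved to 1.26 without WT stage 10 replicate 3, to 0.36 and 0.30 without WT stage 10 replicates 1 and 2, and to 0.50 without ostie1-1 stage 10 replicate 1. At stage 12 the ostie1-1 values were below all WT values in 5 loci, above them in 6, and overlapped in 16, and over all loci tested 31.8% were below and 17.0% above. The 5 loci below were LOC_Os04g47250, LOC_Os06g47910, LOC_Os08g15180, LOC_Os10g05750 and LOC_Os10g05980, which are not the same 5 as at stage 10. The stage 12 orders and shares are also of unscaled FPKM. The factors were 1.08 to 1.31 in WT stage 12 and 0.972 and 0.878 in ostie1-1 stage 12. Divided by them, LOC_Os04g47250 overlapped with WT and LOC_Os05g05920 came to lie above it. The 6 loci above were LOC_Os02g44320, LOC_Os03g12030, LOC_Os05g40010, LOC_Os06g43044, LOC_Os07g37850 and LOC_Os10g33370. With 17.0% of all loci above as well, the count of 6 is not read as a result about the 27. The order of LOC_Os02g44320 lies at the floor, at 0.775 and 1.20 FPKM in ostie1-1 against 0.0885, 0 and 0 FPKM in WT. The median log2 difference at stage 12 was 0.23 (from -4.79 to 3.02), but -0.05 with unscaled FPKM and -0.12 with TPM. It was 0.59 and 0.03 without WT stage 12 replicates 1 and 3, 0.60 and 0.13 without ostie1-1 stage 12 replicates 1 and 2, and 0.57 with the replicate block, so its sign and size are not settled.

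**Figure D5:**
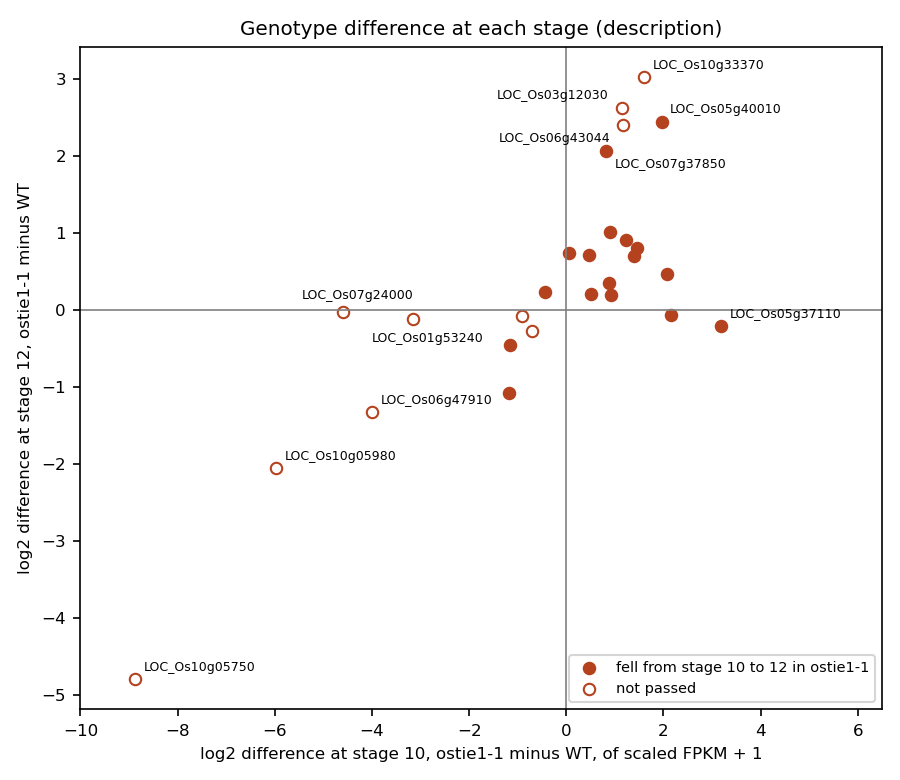
Log2 difference between ostie1-1 and WT at stage 10 (horizontal axis) and at stage 12 (vertical axis) for each of the 27 loci, on the scaled log2(FPKM + 1) scale; filled points fell from stage 10 to 12 in ostie1-1. The 5 loci at the left, from -3.15 to -8.87, are those below WT in every ostie1-1 stage 10 library, and the 5 highest points exceed 2 at stage 12.

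Few of the loci stood on lists of anther genes drawn up by locus ID from general knowledge, which were not checked against an annotation. The pollen wall and anther cuticle list, of enzymes, transporters and lipid transfer proteins that make and move wall material, held 2 of them among its 16 loci. Of its 11 tested loci 3 fell from stage 10 to 12 in ostie1-1 and 0 rose, with a median log2 difference of -2.04. These 3 include the 2 members, LOC_Os08g43290 and LOC_Os11g37280, whose falls are already given above. Over all loci tested 2.96% fell and 7.79% rose. The sugar supply list, which serves the feeding of pollen, held 1 of them, LOC_Os01g16810, among its 3 loci. This member was the only 1 of the 3 that fell, and the median log2 difference of the list was 0.11. None stood on the tapetum list, of whose 9 tested loci 0 fell and 0 rose in ostie1-1 (limma adjusted p, median log2 difference -0.99), with 3 lower and 0 higher at an unadjusted p below 0.05. On that list 5 loci reached 5 FPKM in all WT stage 10 libraries. The late pollen list ran the other way, with 5 of 7 tested loci higher at stage 12 in ostie1-1 (median 3.04). The jasmonate biosynthesis, jasmonate signalling, meiosis, photosynthesis, cellulose synthase, stamen identity, and pistil and glume lists held none of the 27. Few of their loci could be members. Those at 5 FPKM in all WT stage 10 libraries numbered 2, 8, 3 and 5 on the first 4 of these lists. They numbered 3 and 2 for primary and secondary wall cellulose synthases, 1 for stamen identity and 0 for pistil and glume. Of all loci at that level 0.298% were members.

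The threshold parted loci of nearly the same course. Just inside it, the lowest WT stage 10 value was 3.04 times the highest WT stage 12 value for LOC_Os04g08550 and 3.09 times for LOC_Os08g15180. Just outside it were LOC_Os01g07730 at 2.93 and LOC_Os04g55710 at 2.92 times. On the level, LOC_Os05g05920 (lowest WT stage 10 value 6.24 FPKM) and LOC_Os10g33370 (6.501 FPKM) were the lowest taken, and LOC_Os12g43640 (4.52 FPKM) and LOC_Os01g27360 (3.37 FPKM) the nearest left out.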

How the data were processed

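Deposited values are FPKM per MSU transcript model, computed by the authors. The tools named per the submitters' processing notes are HISAT2 2.2.0, with the IRGSP-1.0 genome, and featureCounts; how counts became FPKM is not given in the sources used here. FPKM of 66338 models were summed to 55986 loci. Library sums were 749507 to 845797 FPKM. Steps in the low values (under 0.3 FPKM) gave relative depths of 0.914 to 1.17; the absolute depth is unknown, so no counting interval is given.

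Loci with at least 1 FPKM in at least 2 libraries were tested (21279). Libraries were divided by median-of-ratios factors (0.729 to 1.31) and transformed as log2(FPKM + 1), which understates changes of low loci. A limma model (version 3.58.1, R 4.3.3) with trended variance and a mean for each group used all 11 libraries, with Benjamini-Hochberg adjustment over all loci tested. On simulated data for stage 12 against 10 in ostie1-1, 42 of 100 loci with a log2 fall of 2 and 80 of 100 with one of 4 were recovered, with 9 false calls among 21279 loci. The loci named include the most abundant, the largest and smallest changes, the extremes between genotypes and those at the threshold, and all 27 are named. The loci, lists and tests were chosen with earlier results of these data known.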

Additional observations from a re-analysis of the deposited data

How the results depend on the processing

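With unscaled FPKM, TPM, quantile normalization, a pseudocount of 0.1, no filter, a filter of 5 FPKM, robust variance, only the ostie1-1 libraries or the replicate number as a block, 13 to 20 of the 27 loci fell in ostie1-1, against 17 as reported, and 0 rose. With the block 13 fell. The replicate numbers do not pair the libraries: 2 of 15 same-numbered pairs had deviations correlated above 0.1 (-0.47 to 0.15).

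With one library left out of the fit, 4 to 22 of the 27 fell, and 611 to 4841 of all loci tested changed against 2288. The lowest counts were without ostie1-1 stage 12 replicate 1, the highest without WT stage 10 replicate 3. The median at stage 12 between the genotypes reversed to -0.047 with unscaled FPKM and -0.121 with TPM. LOC_Os01g53240, at -0.18 between the stages in ostie1-1, turned to 0.094 with the block and ranged from -0.57 to 0.218 with one library left out.

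A rule with a fold of 2 gave 76 loci, of which 50 met that fold in ostie1-1 and 42 fell, and one with a fold of 5 gave 11, 7 and 6. A minimum of 1 FPKM gave 54, 31 and 26. Leaving one WT library out of the rule gave 29 to 100 loci, 19 to 51 meeting the fold and 17 to 50 falling, with 63, 39 and 30 without WT stage 10 replicate 1 and 100, 51 and 50 without WT stage 12 replicate 1. With WT stage 10 replicate 3 out of both rule and fit, an alternative chosen after seeing the data, 28 of 40 fell. In that fit 2037 of all loci tested fell, against 630 as reported. The share that fell was 47.6% to 62.1% over these rules with the main fit, and 70.0% with that library out of both. Relative depths were similar, but the number of libraries limits the precision, above all the 2 of ostie1-1 at stage 12.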
